A study of Danio rerio with 4 samples.

Results

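The genes described here are hapln1a (ENSDARG00000089769) and vcanb (ENSDARG00000009401), 2 of the 20880 genes with at least 1 transcript in a kept well. They were chosen by name, as the link protein and the versican of the hyaluronan matrix, and not by a rule on their values. Earlier results of these data were known at that time. Cells of the tcf21 lineage, which covers the epicardium and the cells derived from it, were sorted singly into 4 plates of 384 wells from zebrafish ventricles 7 days after cryoinjury (7 dpi). The prrx1b-/- plates hold cells of homozygous mutants, which carry a nonsense allele in the transcription factor gene prrx1b, and the WT plates hold cells of their wild-type siblings, with 2 plates per genotype. Cells of both genotypes carried the tcf21:CreERT2 driver, expressed from the tcf21 promoter, with the ubi:loxP-EGFP-loxP-mCherry reporter, had been recombined as embryos with 4-hydroxytamoxifen, and were sorted as mCherry-positive and EGFP-negative, so cells that did not recombine are not represented. The hearts of each genotype were 20 in number, and separate hearts for each plate are not named, so p-values over plates measure the spread between plates, which may be technical, and genotype cannot be told apart from the set of hearts and its sorting.

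Hyaluronan is a long sugar chain made at the plasma membrane and released into the extracellular space. Versican is a large chondroitin sulphate proteoglycan whose globular head binds hyaluronan, and link protein, the product of hapln1 genes, locks both partners together so that the aggregate becomes a stable, hydrated matrix. In the zebrafish heart this matrix is best known from the cardiac jelly of the embryo, and in adult vertebrate tissue versican and hyaluronan are known components of provisional wound matrix. Link protein and lectican genes lie in neighbouring pairs in vertebrate genomes. In the RefSeq gene order of zebrafish (assembly GRCz12tu), hapln1a lay between the other versican gene, vcana, and edil3a, whereas vcanb lay between xrcc4 and hapln1b. The members therefore come from different pairs. The gene vcana was not analysed here.

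The kept wells, those with 1000 transcripts or more, numbered 366 and 366 in the prrx1b-/- plates and 357 and 364 in the WT plates, or 1453 of 1536. The plates held 3773059 and 3458835 transcripts (prrx1b-/-) and 2914680 and 2628354 transcripts (WT), and the median per kept well was 7654 and 7543 in the mutant plates and 6055 and 5066 in the WT plates. The same 384 well barcodes were used on every plate. A gene named PRRX1 (ENSDARG00000033971) had 97.0 and 138 CPM (transcripts per 1000000, over the kept wells of a plate) in the prrx1b-/- plates and 117 and 122 in the WT plates, and the other gene of that name (ENSDARG00000042027) had 1.14 to 3.98. The name table does not say which of them is prrx1b, and a nonsense allele need not lower the transcript, so this does not check the labels. Fibroblast markers summed to 46329 and 48468 CPM in the mutant plates and 33959 and 44692 in the WT plates, and 6 cardiomyocyte markers to 21.2 and 8.10 in the mutant plates and 131 and 13.7 in the WT plates, so that WT plate 1 stood apart. The 4 leukocyte markers found summed to 14.1 and 11.0 CPM in the prrx1b-/- plates and 154 and 79.6 in the WT plates, mostly cd74a. The 4 endothelial markers found summed to between 4.57 and 8.75 in every plate.

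hapln1a was an abundant transcript in these cells, and its level was higher in both prrx1b-/- plates than in either WT plate. Its level was 882 and 827 CPM in the prrx1b-/- plates, against 592 and 568 in the WT plates. This put it at rank 192 and 198 by level in the mutant plates and at rank 256 and 268 in the WT plates, among 16871 to 18004 genes with a transcript on the plate. The groups did not overlap, and the fitted log2 fold change of prrx1b-/- over WT was 0.58 (SE 0.13). It did not pass the threshold of 0.05 over the 11191 genes tested (edgeR quasi-likelihood test on transcripts summed per plate, Benjamini-Hochberg adjusted p = 0.0698, unadjusted p = 0.00121), where it ranked 193 by p. Of all genes tested, 40 passed as higher in the mutant (0.357%) and 109 in either direction (0.974%), and both mutant plates lay above both WT plates for 2306 genes (20.6%).

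Whether hapln1a passed depended on the fit. With wells thinned to 1000 transcripts the log2 fold change was 0.43 (edgeR adjusted p = 0.129). DESeq2's Wald test on the same sums gave a log2 fold change of 0.58 with an adjusted p of 0.00852, and edgeR without the filter on low counts gave 0.61 with an adjusted p of 0.00502. Both of these fits called more genes in general, 169 of 11191 and 523 of 20880, against 109 of 11191 in the main fit. Without WT plate 1 the difference was 0.58, and without WT plate 2 it was 0.60. Without prrx1b-/- plate 1 it was 0.53, and without prrx1b-/- plate 2 it was 0.64. These fits leave 1 plate in a group, so only the size of the difference is given. The share of transcripts on ribosomal protein genes differed between the genotypes, at 9.14% and 9.17% in the mutant plates and 11.3% and 12.7% in the WT plates, and with these genes left out of the fit the difference was again 0.58 (adjusted p = 0.0787).

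vcanb was less abundant than hapln1a and had no difference that passed the test. It ranked 1587 and 2188 by level in the prrx1b-/- plates and 2067 and 2195 in the WT plates, among 16871 to 18004 genes with a transcript. Its level was 83.8 and 59.8 CPM in the prrx1b-/- plates, against 62.1 and 56.7 in the WT plates, which corresponds to 316 and 207 transcripts in the mutant plates and 181 and 149 in the WT plates. The groups overlapped, since prrx1b-/- plate 2 lay between the WT plates. The log2 fold change was 0.29 (SE 0.19, edgeR adjusted p = 0.522). It was 0.03 without prrx1b-/- plate 1 and 0.53 without prrx1b-/- plate 2, so that the first mutant plate carried most of the difference.

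**Figure D1:**
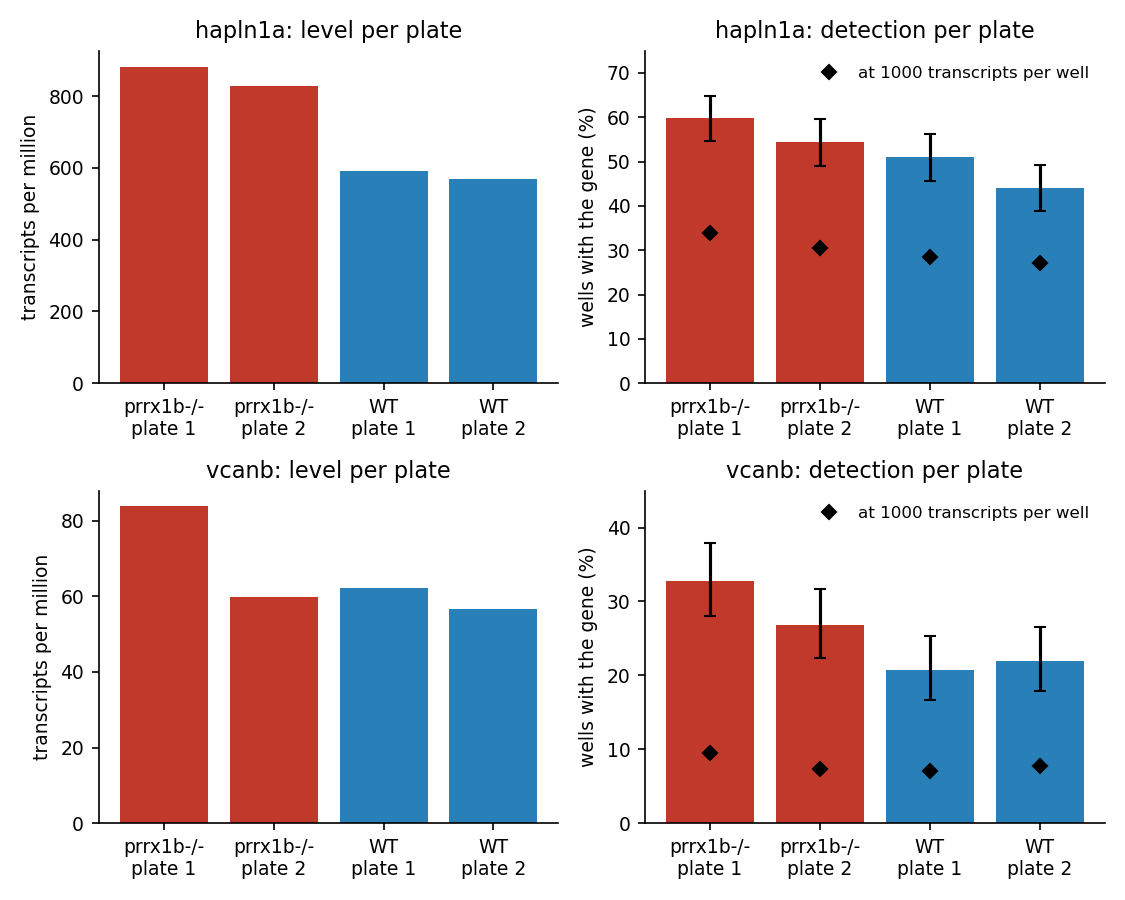
Level (left, CPM of all transcripts in kept wells) and detection (right, percent of kept wells with the gene, bars with exact 95% binomial intervals) of hapln1a (top) and vcanb (bottom) in the 2 prrx1b-/- plates (red) and the 2 WT plates (blue). Diamonds give the percent expected after drawing 1000 transcripts from each well. hapln1a stands at 882 and 827 in the mutant plates above 592 and 568 in the WT plates, and the vcanb levels overlap.

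A sum over wells cannot tell more cells with a transcript from more transcripts per cell, so the wells were described one by one. hapln1a was found in 59.8% (95% exact binomial interval 54.6 to 64.9) and 54.4% (49.1 to 59.6) of the prrx1b-/- wells, and in 51.0% (45.7 to 56.3) and 44.0% (38.8 to 49.2) of the WT wells. These intervals, like all such intervals here, cover counting error only. The mean share was 57.1% ± 3.86 in the mutant and 47.5% ± 4.97 in WT (SD, n = 2 plates each), a difference of 9.64 percentage points (p = 0.333 in a two-sided exact permutation of the plates, which with 2 against 2 cannot go lower). The mutant wells held more transcripts, and when each well was reduced to 1000 transcripts the expected share was 34.0% and 30.5% in the mutant plates and 28.6% and 27.1% in the WT plates, a difference of 4.38 points.

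vcanb was found in 32.8% (28.0 to 37.9) and 26.8% (22.3 to 31.6) of the prrx1b-/- wells, and in 20.7% (16.6 to 25.3) and 22.0% (17.8 to 26.6) of the WT wells. The difference of the means was 8.43 points (exact permutation p = 0.333). At 1000 transcripts per well it was 0.972 points, with 9.52% and 7.35% in the mutant plates and 7.12% and 7.80% in the WT plates, and the plates of the genotypes then overlapped (exact permutation p = 0.667). Between 42.5% and 57.5% of the wells with vcanb held a single transcript of it.

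hapln1a was spread very unevenly over the wells. Had every well held the mean proportion of its plate, 97.8% and 97.0% of mutant wells and 91.7% and 88.3% of WT wells would have been expected to show it, well above the shares found. The 10% of wells with the most hapln1a transcripts held 61.6% and 65.7% of them in the prrx1b-/- plates and 66.8% and 69.6% in the WT plates. The highest well held 144.5 transcripts. For vcanb, the shares expected from an even spread were 50.5% and 38.8% in the mutant plates and 35.6% and 30.2% in the WT plates, also above those found, and no well held more than 18.0 transcripts.

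The wells were also split by their own hapln1a level, which describes how the transcripts were spread and cannot show where a difference arose, since a general shift would also move wells between classes. Wells over 20 hapln1a transcripts per 10000 (a class set after seeing the data) made up 22.1% and 20.2% of the prrx1b-/- wells and 14.8% and 13.5% of the WT wells. They gave 733 and 695 of the CPM in the mutant plates, against 452 and 429 in the WT plates. Wells at 5 to 20 per 10000 were less frequent in the mutant, at 11.7% and 10.7% of wells against 15.1% and 15.7% in WT, and gave 106 and 95.8 CPM in the mutant plates against 102 and 110 in WT. The median total of these wells was 6736 and 7638 in the mutant plates and 4650 and 3935 in the WT plates, and the part of depth in this class was not tested. Wells with up to 5 per 10000 gave 43.2 and 36.4 in the mutant plates and 38.1 and 29.7 in WT. With every well reduced to 1000 transcripts, wells with 2 or more hapln1a transcripts were expected at 24.4% and 21.2% in the mutant plates and at 17.9% and 16.7% in the WT plates, so the mutant plates were the higher ones at equal depth as well. None of these well classes was tested.

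The members occurred in the same wells. Of 1453 wells, 278 held both transcripts, 482 hapln1a alone, 94 vcanb alone and 599 neither. In wells with hapln1a, vcanb was found in 43.4% and 38.7% of cases in the prrx1b-/- plates and in 29.7% and 32.5% in the WT plates. In wells without hapln1a it was found in 17.0% and 12.6% of cases in the mutant plates and in 11.4% and 13.7% in the WT plates. The share was higher beside hapln1a in 4 of 4 plates, by a mean of 22.4 percentage points (p = 0.13 in a two-sided exact sign-flip test, which cannot go lower with 4 plates). The wells with hapln1a were the shallower ones, with a median of 6254 transcripts, against 7206 in wells without it. At 1000 transcripts per well the mean difference was 12.2 points and was positive in each plate.

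The co-occurrence followed the level of hapln1a and not only its presence. In wells over 20 hapln1a transcripts per 10000, vcanb stood at 286 and 229 CPM in the prrx1b-/- plates and at 315 and 214 in the WT plates. In wells with no hapln1a it stood at 48.9 and 23.9 in the mutant plates and at 22.4 and 28.6 in the WT plates. The genotypes overlapped in both of these classes. Wells with up to 5 hapln1a transcripts per 10000 had a vcanb level of 31.4 and 39.2 in the mutant plates and 42.4 and 50.6 in the WT plates, a range that overlaps that of wells with none. Wells at 5 to 20 had 158 and 74.9 in the mutant plates and 115 and 129 in the WT plates. Seen from the other side, hapln1a stood at 378 and 379 CPM in prrx1b-/- wells without vcanb and at 320 and 399 in such WT wells. In wells at 5 to 20 vcanb transcripts per 10000 it stood at 3324 and 5083 in the mutant plates and at 5328 and 3344 in the WT plates.

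**Figure D2:**
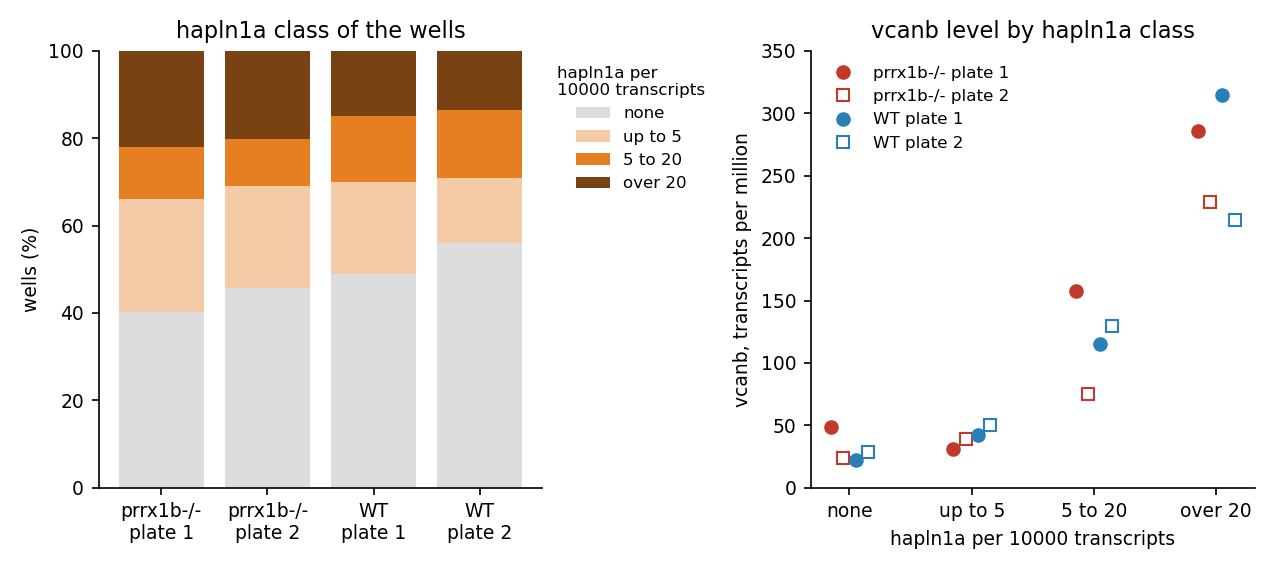
Left, share of kept wells (percent) by hapln1a level per 10000 transcripts in the 2 prrx1b-/- plates and the 2 WT plates; the darkest class, over 20 per 10000, holds 22.1% and 20.2% of mutant wells and 14.8% and 13.5% of WT wells. Right, vcanb level (CPM, summed over the wells of a class) by hapln1a class, 1 point per plate, with the prrx1b-/- plates in red and the WT plates in blue; the points of the genotypes overlap in every class but that of up to 5 per 10000, where the mutant plates are the lower ones, and all 4 plates are highest in the class over 20.

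The same relation was measured as a correlation over wells, after the dependence on depth had been removed within each plate. Pearson r between hapln1a and vcanb was 0.47 and 0.44 in the prrx1b-/- plates and 0.38 and 0.28 in the WT plates, with a mean of 0.39. With every well thinned to 1000 transcripts the mean was 0.23, on log2(transcripts + 1) and without the fit on depth. Among the 4906 genes found in at least 10% of the wells of every plate, vcanb ranked 6 by mean r with hapln1a, and hapln1a ranked 3 by mean r with vcanb. The median gene had a mean r of 0.0047 with hapln1a and 0.0071 with vcanb, and 1 in 100 genes exceeded 0.24 with hapln1a and 0.22 with vcanb. Wells of a plate share a library and a pool of hearts, so these values describe the wells and carry no p.

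The gene most like both members was cd34, a sialomucin of the cell surface known from blood progenitors, endothelium and stromal fibroblasts. Its mean r was 0.49 with hapln1a (0.43 to 0.53 over the 4 plates) and 0.47 with vcanb (0.39 to 0.55). The rest of the top 10 for hapln1a were HTRA1, a secreted protease (0.40, 0.34 to 0.45), fgl2b, a fibrinogen-like protein (0.40, 0.32 to 0.47), DPT, which encodes dermatopontin (0.40, 0.35 to 0.46), DCN, which encodes the small proteoglycan decorin (0.39, 0.35 to 0.45), vcanb itself, THBS3, a thrombospondin (0.39, 0.34 to 0.44), ADD3, a protein of the membrane skeleton (0.38, 0.35 to 0.43), mfap5, a microfibril component (0.38, 0.33 to 0.44), and si:ch73-380l3.1 (0.38, 0.34 to 0.44). All 10 were positive in each plate.

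The top 10 for vcanb shared cd34, fgl2b, si:ch73-380l3.1 and mfap5 with that list. At 1000 transcripts per well cd34 and fgl2b kept ranks of 1 and 4 with vcanb, whereas si:ch73-380l3.1 stood at rank 74 (r = 0.10) and mfap5 at rank 134 (r = 0.08). At full depth fgl2b had a mean r of 0.39 with vcanb (0.35 to 0.43), si:ch73-380l3.1 of 0.36 (0.22 to 0.41) and mfap5 of 0.32 (0.29 to 0.36). The others, beside hapln1a, were PHLDA2 (0.35, 0.30 to 0.43), ahnak (0.35, 0.32 to 0.38), crip1 (0.35, 0.26 to 0.43), the elastic fibre protein gene EMILIN2 (0.34, 0.22 to 0.42) and ENSDARG00000087508 (0.33, 0.22 to 0.44). Of the 50 genes with the highest mean r for each member, 34 were common to both (68% of each list).

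At the other end, si:ch211-198c19.3 had the lowest r with both members, at -0.42 with hapln1a (-0.49 to -0.33) and -0.33 with vcanb (-0.41 to -0.24). The next lowest for hapln1a were the mitochondrially encoded MT-CO2 (-0.30), cldc1 (-0.27), the pericyte marker RGS5 (-0.26) and MT-CYB (-0.25). RGS5 was far less extreme by Spearman's rho without the fit on the total (-0.11, rank 4244). The mean mitochondrial share of the wells over 20 hapln1a transcripts per 10000 was 1.72% and 1.91% in the prrx1b-/- plates and 1.86% and 2.32% in the WT plates, against 3.00% and 2.68% (mutant) and 2.78% and 3.03% (WT) in the wells with none; its part in the correlations was not tested. For vcanb the next lowest were the complement gene c4b (-0.30), tfa, a transferrin gene (-0.27), adh8a, an alcohol dehydrogenase gene (-0.27), and cldc1 (-0.24). cldc1 and adh8a are among the injury epicardium markers.

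**Figure D3:**
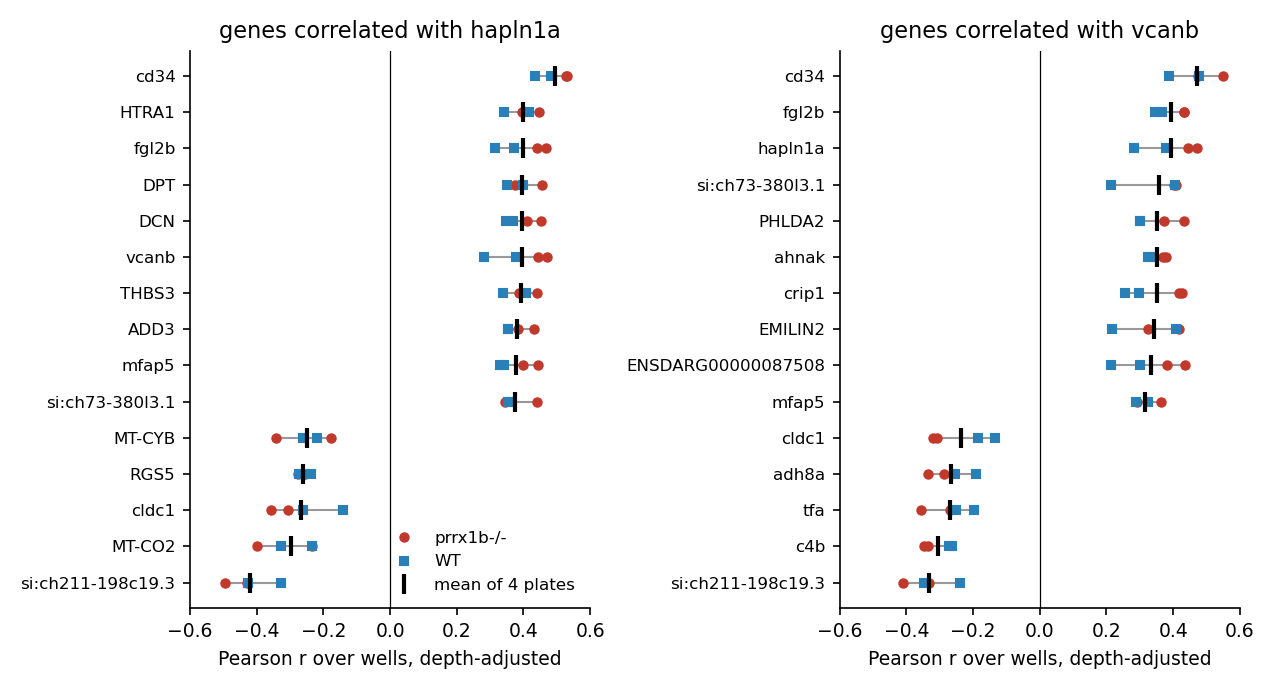
Pearson r over wells with hapln1a (left) and vcanb (right) for the 10 genes with the highest and the 5 with the lowest mean over plates, after a fit on the well's total within each plate. Red circles are the 2 prrx1b-/- plates, blue squares the 2 WT plates, grey lines the range and black ticks the mean of 4 plates, so that cd34 stands at 0.49 and 0.47 and si:ch211-198c19.3 at -0.42 and -0.33.

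The marker lists were placed in the same order of genes, which leaves out genes found in under 10% of the wells of any plate. Of the fibroblast, pericyte and smooth muscle markers, this left out POSTN, another FSTL1 gene, another PTX3 gene, KCNJ8, ABCC9 and MYH11. All 4 injury epicardium markers had a negative mean r with hapln1a, namely cldc1, ALDH1A2, which makes retinoic acid (-0.25), adh8a (-0.19) and the transcription factor gene wt1b (-0.10). The 4 remote epicardium markers had a positive mean, with TCF21, the gene whose promoter drives the lineage label, at 0.20 (0.09 to 0.28), RTCA at 0.12, HSPH1 at 0.10 (-0.07 to 0.22) and TBX18 at 0.06, which with wells thinned to 1000 transcripts were 0.09, 0.03, 0.08 and -0.0049 in the same order, so that the sign of TBX18 did not hold. The fibroblast markers were split. The collagen genes COL5A1 (0.31), col1a1a (0.29) and COL1A2 (0.25) and the secreted protein gene FSTL1 (0.27) were positive in every plate, as was a gene named FN1, which encodes fibronectin (ENSDARG00000006526, 0.20). PTX3 (-0.18) and DKK3 (-0.15) were negative in every plate, as were both collagen genes named COL12A1 (-0.04 and -0.09), and the other FN1 gene (ENSDARG00000019815) had 0.03 with mixed signs. With wells thinned to 1000 transcripts that FN1 gene had -0.13 and the COL12A1 genes -0.15 and -0.19. COL5A1, col1a1a, COL1A2, FSTL1 and the first FN1 gene then had 0.18, 0.16, 0.09, 0.15 and 0.13. The pericyte and smooth muscle markers went both ways. A gene named TAGLN (ENSDARG00000033466, 0.25) was positive in every plate. RGS5 (-0.26), acta2 (-0.12) and the other TAGLN gene (-0.09) were negative in every plate. NOTCH1 (-0.04), NOTCH3 (-0.03) and rgs5b (-0.02) had mixed signs. With vcanb the fibroblast markers were split as well. FSTL1 (0.25), COL5A1 (0.25), col1a1a (0.19), COL1A2 (0.18) and the first FN1 gene (0.13) were positive in every plate. With wells thinned to 1000 transcripts these were 0.05, 0.14, 0.06, 0.06 and 0.06 in the same order. PTX3 (-0.13) and DKK3 (-0.12) were negative in every plate, the COL12A1 genes had -0.02 and -0.08, and the other FN1 gene had 0.07. Pericyte and smooth muscle markers went both ways with vcanb too. TAGLN (ENSDARG00000033466) had 0.22 and RGS5 -0.15, which with wells thinned were 0.06 and -0.03. The others were rgs5b (-0.07), NOTCH1 (-0.04), acta2 (-0.03), the other TAGLN gene (0.02) and NOTCH3 (0.04). ALDH1A2 had -0.18, and wt1b had -0.05 with mixed signs over plates (-0.14 to 0.02). TBX18 had 0.04, RTCA 0.11, HSPH1 0.13 and TCF21 0.08. HSPH1 (-0.05 to 0.22) and TCF21 (-0.03 to 0.21) were not positive in every plate.

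To show which cells carried the members, wells were grouped into 10 clusters by 1344 other genes, with hapln1a and vcanb left out of the grouping, and numbered by their hapln1a level. Their genes are correlated with the members, so the differences between clusters are a description and carry no test. The hapln1a level was 3638 CPM in cluster 1 and 96.6 in cluster 10, and that of vcanb was 262 in cluster 1, 241 in cluster 3 and 19.8 in cluster 9. Clusters 1 and 3, with 65 and 85 cells, had the highest vcanb levels and high hapln1a levels, and both had all 4 remote epicardium markers over 1.5-fold above the other cells. Cluster 1 was led by genes of the immediate early response (FOS, egr2a, egr1), and cluster 3 by heat shock genes such as hsp70l and HSPB1. Both clusters are therefore remote epicardium-like by their markers, but HSPH1, 1 of the 4, is itself a heat shock gene.

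Of the 4 clusters with the least hapln1a, 3 could be named by the count of raised markers. Cluster 10 (71 cells) was fibroblast-like, with 9 of 13 fibroblast markers raised and the fibrillar collagen gene COL11A1 leading, and it had 96.6 CPM of hapln1a and 30.7 of vcanb. Cluster 9 (183 cells) was injury epicardium-like, with 3 of 4 markers raised, and had 196 of hapln1a and 19.8 of vcanb. Cluster 7 (325 cells) was pericyte-like, with 7 of 10 markers raised and RGS5 leading, and had 326 of hapln1a and 50.1 of vcanb. Its pericyte and smooth muscle markers summed to 2050 CPM, however, below the 2461 to 2822 of clusters 1, 3, 4 and 8. Cluster 8 (144 cells) stayed unnamed, with 3 of 13 fibroblast markers, 3 of 10 pericyte and smooth muscle markers and no epicardium marker raised, and had 317 of hapln1a and 47.6 of vcanb. Cluster 5 (133 cells), not among these 4, had 4 of 13 fibroblast markers and 2 of 10 pericyte and smooth muscle markers raised. The fibroblast marker POSTN was raised there and in no other cluster. Cluster 5 had 930 CPM of hapln1a and 101 of vcanb. Cluster 2 (65 cells) was led by mgp, an inhibitor of matrix calcification, and PI15. It had 1 of 13 fibroblast markers raised, an FN1 gene (ENSDARG00000006526, 2.96-fold). Its fibroblast markers summed to 78786 CPM, against 62601 in cluster 10, but that FN1 gene alone averaged 531 transcripts per 10000 in its cells. A high fibroblast sum thus went with both high and low hapln1a, though in cluster 2 the sum rested largely on 1 gene. Cluster 2 had a hapln1a level of 2652 beside a vcanb level of 90.8, below that of clusters 3, 4 and 5, so the members did not follow the same order there, nor in clusters 9 and 10.

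Even these low clusters showed hapln1a in many wells. It was found in 43.7% of the cells of cluster 10, whose median total of 17913 transcripts was the highest, and in 80.0% of those of cluster 1, whose median total was 4319. At 1000 transcripts per well the expected shares were 11.4% in cluster 10 and 67.5% in cluster 1, and those of vcanb were 4.26% and 20.4%. Low shares at full depth in the clusters with little hapln1a can hold free RNA, and their part was not tested.

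Within clusters, hapln1a was higher in both prrx1b-/- plates than in both WT plates in clusters 2, 3 and 8. Over whole plates this order held for 20.6% of all genes tested, and the share within clusters was not computed, so the order is only described. It stood at 4137 and 2919 CPM in the mutant cells of cluster 2, against 1732 and 1618 in the WT cells. In cluster 3 it stood at 3458 and 3158 in the mutant cells and at 863 and 1807 in the WT cells, and in cluster 8 at 397 and 589 in the mutant and at 109 and 128 in WT. In cluster 1 the plates overlapped, with 4765 and 3834 in the mutant cells and 4235 and 2046 in the WT cells, as they did in clusters 4, 5, 6, 7 and 10. In cluster 9 the order was the other way, with 184 and 95.9 in the mutant cells and 237 and 189 in the WT cells. The number of cells per plate was small, from 7 to 25 in clusters 1 to 3 of either genotype. Cells of cluster 9 were fewer in the mutant plates (25 and 27) than in the WT plates (86 and 45). So were those of cluster 1, with the most hapln1a (7 and 16 against 23 and 19). Cells of cluster 7, also low in hapln1a, were more numerous in the mutant plates (133 and 77) than in the WT plates (75 and 40). In the other clusters the cell counts of the genotypes overlapped. The part of these counts in the hapln1a difference was not tested. vcanb in cluster 1 stood at 357 and 219 in the mutant cells and at 264 and 258 in the WT cells.

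**Figure D4:**
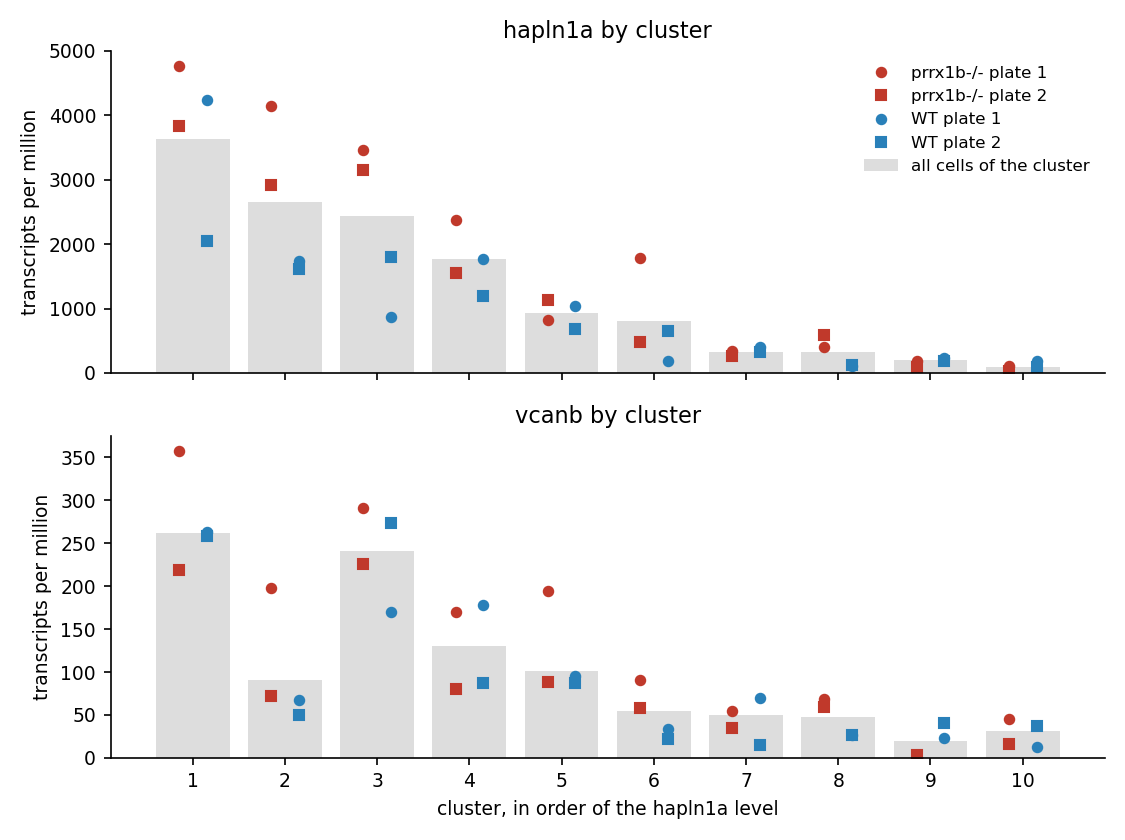
Level of hapln1a (top) and vcanb (bottom) in CPM in 10 clusters formed without either gene, numbered by the hapln1a level. Grey bars are all cells of a cluster and points its cells on each plate, prrx1b-/- in red and left of WT in blue; hapln1a is 3638 in cluster 1 and 96.6 in cluster 10, and vcanb is highest in clusters 1 and 3.

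The other genes of the hyaluronan matrix were taken from a list of 52 symbols, of which 33 were matched, giving 33 measured genes and, after the filter on low counts, 25 tested genes. None of the 25 passed the threshold in either direction by edgeR, whereas 5 had an unadjusted p under 0.05 and DESeq2's Wald test called 1, which was hapln1a. The median log2 fold change of the list was 0.11, beside -0.01 over all genes tested, and 15 of its genes were positive, as were 5434 of all 11191. Among all genes, 1572 had an unadjusted p under 0.05. By edgeR 109 of all 11191 genes were called, and by the Wald test 169 of 11191.

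The synthases, which spin hyaluronan at the membrane, were all low. HAS1 had 15.6 and 20.2 CPM in the prrx1b-/- plates and 22.3 and 22.4 in the WT plates, HAS2 had 18.0 and 27.8 in the mutant and 18.5 and 14.8 in WT, and HAS3 had 4.57 to 9.61 in all plates. UGDH, which makes the glucuronic acid precursor shared by hyaluronan and chondroitin sulphate, was the most abundant gene of this role. It had 339 and 400 in the mutant plates and 287 and 268 in the WT plates (log2 fold change 0.43, SE 0.14, edgeR adjusted p = 0.189). Its mutant plates both lay above its WT plates, as for 20.6% of all genes tested.

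Among link proteins hapln1a was accompanied by a gene named HAPLN1 (ENSDARG00000068516), which had 137 and 124 CPM in the prrx1b-/- plates and 108 and 123 in the WT plates (log2 fold change 0.19, SE 0.16, adjusted p = 0.628). Its r with hapln1a was 0.25 (0.19 to 0.28) and with vcanb 0.15 (0.09 to 0.25). HAPLN3 was rare, at 9.81 and 10.7 in the mutant plates and 5.49 and 3.04 in the WT plates (log2 fold change 1.26, SE 0.38, adjusted p = 0.150). acana, which encodes aggrecan, was the other lectican tested and had 2.60 to 9.54 in all plates. Of the hyaluronan receptor genes found, 4 were near absent, with 4 transcripts of cd44a, 24 of cd44b, 13 of hmmr and 4 of lyve1a over all plates. The other receptor genes were rare. stab1 had 9.01 and 11.9 CPM in the mutant plates and 7.55 and 6.85 in WT, and stab2 had 6.36 and 5.49 in the mutant plates and 8.23 and 6.47 in WT.

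Of the genes that cross-link or cut the matrix, TNFAIP6, whose product transfers heavy chains of inter-alpha-inhibitor onto hyaluronan, was the most abundant. It had 607 and 656 CPM in the prrx1b-/- plates and 408 and 479 in the WT plates (log2 fold change 0.52, SE 0.15, edgeR adjusted p = 0.129). Its mutant plates both lay above its WT plates, as for 20.6% of all genes tested. The r of TNFAIP6 with hapln1a was -0.11 (-0.19 to -0.07). ITIH5, of the heavy chain family itself, had 52.7 and 50.3 in the mutant plates and 51.1 and 46.0 in WT, and its r was 0.28 with hapln1a (0.20 to 0.32) and 0.29 with vcanb (0.23 to 0.37). CEMIP, which takes part in hyaluronan breakdown, had 184 and 193 in the mutant plates and 269 and 160 in the WT plates, and its r was -0.15 with hapln1a and -0.21 with vcanb (-0.24 to -0.18). Among the proteases able to cut versican, only genes of ADAMTS8, ADAMTS9 and ADAMTS15 were matched, and the most abundant of these was ADAMTS9, at 60.4 and 62.2 in the mutant plates and 88.9 and 65.4 in the WT plates (log2 fold change -0.31, SE 0.17, adjusted p = 0.447), with an r of -0.12 with hapln1a and -0.06 with vcanb.

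**Figure D5:**
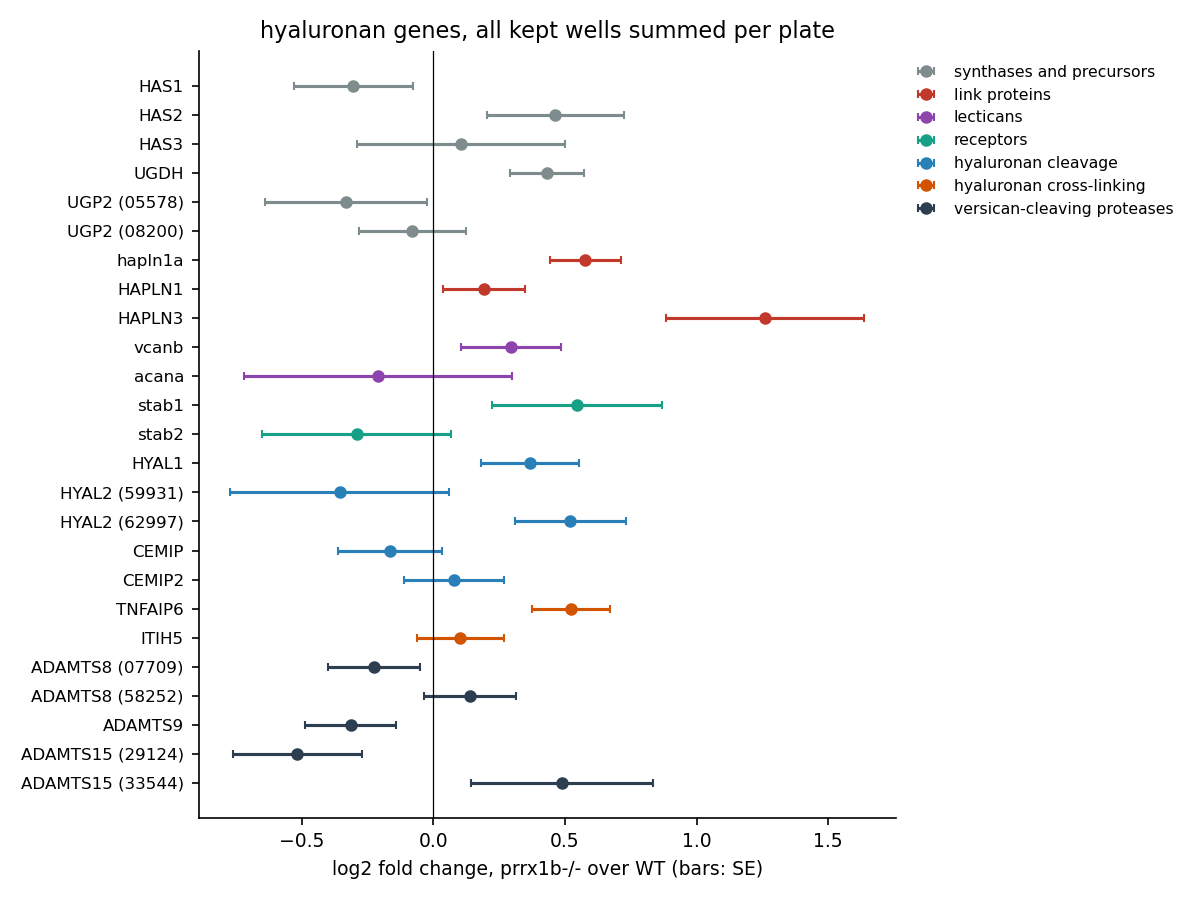
Log2 fold change of prrx1b-/- over WT (horizontal axis, bars 1 SE, edgeR on transcripts summed per plate) for the 25 tested genes of the hyaluronan list, coloured by role; the last 5 digits of the gene ID tell genes of 1 symbol apart. hapln1a stands at 0.58, vcanb at 0.29, TNFAIP6 at 0.52, UGDH at 0.43 and ADAMTS9 at -0.31, and none passed the adjusted threshold.

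Versican carries chondroitin sulphate chains, so the genes that build them were counted too. Of 25 symbols, 21 genes were measured and 16 tested, none was called by edgeR in either direction, 2 had an unadjusted p under 0.05, and the median log2 fold change was 0.23, with 13 positive. A p under 0.05 was thus found for 12.5% of this list, beside 14.0% of all genes tested. The median over all genes was -0.01, and 5434 of 11191 were positive. UST, a sulphotransferase that acts on uronic acid, had 30.7 and 38.7 CPM in the prrx1b-/- plates and 16.5 and 20.2 in the WT plates (log2 fold change 0.94, SE 0.22, adjusted p = 0.0746). B4GALT7, which builds the linkage to the core protein, had 16.4 and 20.2 in the mutant plates and 12.01 and 8.75 in the WT plates (log2 fold change 0.83, SE 0.27, adjusted p = 0.181). CHST11, a chondroitin sulphotransferase and the most abundant of the list, had 290 and 323 in the mutant plates and 164 and 315 in the WT plates, with WT plate 1 apart from the rest, and its r was 0.12 with vcanb (0.07 to 0.20) and 0.02 with hapln1a.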

How the data were processed

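SORT-seq plates of tcf21-lineage cells (2 per genotype) were used. The authors mapped CEL-Seq2 read pairs to Zv9 (BWA 0.6.2 per the submitters' notes) and deposited expected counts per gene and well, not scaled for depth. Every one of the 3083620 values above 0 fitted a barcode collision correction for 6 random bases within 0.005, whereas the labels name 4. Wells with at least 1000 transcripts of Ensembl genes were kept. The study sorted single cells, and doublets were not looked for.

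Transcripts were summed per plate, rounded, and tested by edgeR 4.0.16 (quasi-likelihood, TMM, filterByExpr, Benjamini-Hochberg over all genes); DESeq2 1.42.0 was an alternative. The fit was tested on simulated data, in which many changed genes were missed, so a gene that was not called is not shown to be unchanged. Correlations were Pearson r of log2(transcripts per 10000 + 1) after a linear fit on the log10 total, per plate. Named genes were the 10 highest and 5 lowest by mean r, genes of the list that were called, and the most abundant of each role. Other list genes, such as UST, B4GALT7, HAPLN3 and ITIH5, fall outside this rule and were named with their values known. Clusters came from k-medoids on 1 − Pearson correlation (cluster 2.1.8.1). Shares at 1000 transcripts are exact hypergeometric expectations. Correlations at that depth use 1 random draw and log2(transcripts + 1), without scaling to 10000 and without the fit. They therefore differ from the main values in scale as well as in depth, and the 2 parts were not separated. Symbols were found for 16179 of 20880 genes; capitals follow the name table.

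The members, lists and tests were chosen with earlier results of these data known. Gene and protein sequences were not used here.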

Additional observations from a re-analysis of the deposited data

Results flagged for a closer look

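The 83 wells under 1000 transcripts, which no comparison uses, held 26.0 transcripts of hapln1a, found in 11 wells and above the 3 counts that a count of 0 allows. That bound is for an absent gene, so passing it shows only that this abundant transcript was present there too. They came to 0 and 3 transcripts in the prrx1b-/- plates and 7 and 16.01 in the WT plates, or 1068 CPM of the 24360 transcripts in those wells, and vcanb had 1 transcript there. Per plate the hapln1a level in these wells was 0 and 659 CPM in the mutant plates and 961 and 1924 in the WT plates. This order is opposite to that of the kept wells, rests on few transcripts and was not tested.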

How the results depend on the processing

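The hapln1a difference stayed between 0.43 and 0.61 (log2, prrx1b-/- over WT) under the alternatives that kept all plates. It passed the threshold with DESeq2's Wald test (0.58), without the filter on low counts (0.61) and with the replicate number as a block (0.58, edgeR adjusted p = 0.0252), and was smallest with wells thinned to 1000 transcripts (0.43, adjusted p = 0.129), where each well has nearly equal weight. Leaving out 1 plate gave 0.53 to 0.64 for hapln1a and 0.03 to 0.53 for vcanb, with the lone plate of a genotype assumed to vary like the others. vcanb passed under no alternative, and stood at 0.05 with wells thinned. The count of genes called was 169 with the Wald test and 523 without the filter, against 109, and 99 to 582 with 1 plate left out (579 without WT plate 1, 582 without WT plate 2); the causes were not tested. Genes called in the hyaluronan list were 1 of 25 with the Wald test, beside 169 of 11191 among all genes. Without the filter they were 3 of 33, beside 523 of 20880. In the main fit they were 0 of 25, beside 109 of 11191.

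The labels do not say that same-numbered plates were paired. Deviations of same-numbered plates had r = 0.039 over genes, which with only 2 pairs cannot show whether they shared a batch. With the replicate block, 476 of 11191 genes were called by edgeR, and 3 of the 25 tested in the hyaluronan list. The vcanb difference was 0.28 in that fit (adjusted p = 0.532).

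The detection difference was 6.12 to 13.1 points for hapln1a and 5.42 to 11.4 for vcanb with 1 plate left out, and the co-detection difference was 21.0 to 23.8. All kept their sign. The correlation between the members was 0.37 to 0.43 with 1 plate left out and 0.23 with wells thinned to 1000 transcripts. There most vcanb transcripts are lost, and the log scale differs from that of the main values. Chosen after seeing the data, 8 and 12 clusters gave ratios of highest to lowest cluster of 29.99 and 59.5 for hapln1a, against 37.7 with 10, and of 13.0 and 23.5 for vcanb, against 13.2. With 207 transcripts or fewer on 3 of the 4 plates, counting error limits vcanb.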
